A study of Caenorhabditis elegans with 24 samples.

Results

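The genes described here were 6 proneural basic helix-loop-helix (bHLH) genes and 2 SoxB genes of Caenorhabditis elegans, 8 of the 20687 worm genes counted. They were chosen by name, as known neural regulators, with earlier results of these data known. Their order of onset and loss was followed through embryogenesis. The bHLH members were hlh-2 (M05B5.5), hlh-3 (T24B8.6), hlh-14 (C18A3.8), lin-32 (T14F9.5), cnd-1 (C34E10.7) and ngn-1 (Y69A2AR.29), and the SoxB members were sox-2 (K08A8.2) and sox-3 (F40E10.2). All 8 passed the filter on low counts.

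The study sampled whole embryos of N2, the wild-type laboratory strain, dissected out of adult worms, with no treatment and no mutant. Embryos were staged at 60, 120 and 180 min after the 4-cell stage, then at 225 and 270 min, and last at 330, 410 and 500 min, with 50 embryos pooled in each library and 3 libraries per stage. Messenger RNA was measured with CEL-Seq, which counts the 3′ ends of transcripts, so isoforms with a common end were not told apart. The labels do not say that the 3 libraries of a stage came from separate cultures, and p-values measure only the spread between these libraries. At each stage the labels give replicates 1 and 2 the same sample number and replicate 3 a different number. Replicates 1 and 2 may therefore come from the same sample, which would leave fewer than 3 independent samples per stage. Their counts differed beyond counting error at every stage (chi-square per degree of freedom at least 2.51), so they were kept as separate libraries.

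Proneural bHLH proteins bind DNA as pairs, usually one tissue-restricted protein with one broadly present partner of the E protein family, and they give a cell the competence to become a neuron. In many animals they act for a limited time, in dividing precursors or newly born neurons, and are then replaced by regulators of particular neuron types. SoxB proteins are DNA-binding factors of the HMG-box class that in vertebrates and flies mark neural progenitors and work beside, or against, proneural proteins. In the worm, most embryonic neurons are born before the embryo elongates.

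Library totals ranged from 172620 to 977908 counts over worm genes (median 423142). The highest count of any member in any library was 444. Levels are given as CPM, a gene's count scaled to a common library total, with TMM factors that make most genes comparable between libraries. Changes are log2 differences from edgeR's quasi-likelihood test, with adjusted p-values taken over all 8279 tested genes, and a gene is called at an adjusted p under 0.05. Intervals and lower bounds on folds cover counting error only. Defining markers of muscle, intestine, epidermis, pharynx, germ line and neurons were all detected at 500 min. Vitellogenin RNA, made by the adult intestine, summed to between 0 and 1229 CPM per library. Without the 4 libraries with most of it cnd-1 lost its call from 270 to 330 min (log2 0.85, adjusted p = 0.0618) and sox-2 gained one from 180 to 225 min (0.65, adjusted p = 0.0476). Calls against 60 min were also lost for hlh-14 at 500 min (0.29, adjusted p = 0.743) and lin-32 at 410 min (2.82, adjusted p = 0.0561). In whole embryos, fewer cells of a type and less RNA per cell cannot be told apart.

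The members came on and went off at different stages. With onset defined as the first stage at 50% or more of a gene's own highest stage mean, hlh-2 and hlh-3 were already on at 60 min. Onset was at 120 min for hlh-14, lin-32 and cnd-1, at 180 min for sox-2, at 270 min for ngn-1 and at 410 min for sox-3. Loss was the first stage under 50% after a gene's highest stage, so earlier dips, such as that of cnd-1 to 49.1% at 180 min and 23.6% at 225 min, do not count. It came at 180 min for hlh-3, at 270 min for hlh-14, at 330 min for lin-32 and at 410 min for hlh-2, cnd-1 and ngn-1. The losses of hlh-3 and hlh-14 did not last, since at 330 min these genes stood at 76.3% and 63.8%. Both were under 50% again from 410 min (27.6% and 18.8% at that stage). Neither SoxB gene fell below 50% after its highest stage by 500 min, though sox-2 was near the threshold at 330 min (52.4%). sox-2 was under it at 330 min without the second or the third replicates, at 410 min with spike-in scaling and at 500 min with library size alone. These stages describe means and carry no test.

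The order was also read from each gene's CPM-weighted mean time, computed in each of the 3 replicate series without allowing for the uneven spacing of the stages. It was 206.8 ± 3.66 min (SD, n = 3) for hlh-3, 215 ± 2.84 min for hlh-2 and 219.9 ± 5.55 min for lin-32. It was 228 ± 7.39 min for hlh-14, 241 ± 10.3 min for ngn-1 and 244 ± 2.94 min for cnd-1. The SoxB genes came last, at 309 ± 9.93 min for sox-2 and 433 ± 9.39 min for sox-3. The first rank (hlh-3), the second (hlh-2), the seventh (sox-2) and the eighth (sox-3) were the same in all 3 series. The ranges of neighbours overlapped for hlh-2 and lin-32, for lin-32 and hlh-14, for hlh-14 and ngn-1, and for ngn-1 and cnd-1. By rank, lin-32 and hlh-14 took places 3 and 4 and ngn-1 and cnd-1 places 5 and 6 in every series, with the order inside each of these pairs differing between series. Replicates have no known pairing across stages, and the series follow replicate numbers only. A weighted mean time marks neither onset nor loss. For hlh-3 and cnd-1 it lies between an early and a late high phase. For ngn-1 it lies between an early level, 32.35% of its highest stage mean at 60 min, and a late high phase.

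**Figure D1:**
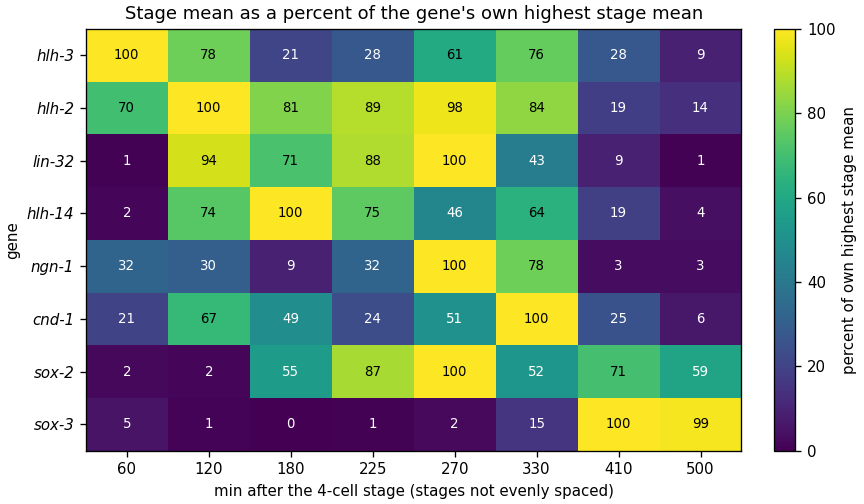
Stage mean of each gene as a percent of its own highest stage mean (colour and printed value), by min after the 4-cell stage, with genes ordered by weighted mean time. Each bHLH row has its highest stage between 60 and 330 min and is at most 28% from 410 min, while sox-2 stays above 50% from 180 min and sox-3 reaches its highest value at 410 min.

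The dimer partner hlh-2, the worm E protein related to fly Daughterless, lies on chromosome I at 7190788 to 7193920 on the minus strand (WBcel235). Its level was 211.5, 297 and 265 CPM in replicates 1, 2 and 3 at 60 min, and 317, 424 and 365 CPM at 120 min. From 120 to 330 min its stage means lay between 299 and 369 CPM. All 18 libraries of the first 6 stages held at least 211.5 CPM, and none of the changes between adjacent stages among them passed the test. The change from 60 to 120 min was 0.52 ± 0.231 on the log2 scale (SE; adjusted p = 0.0679), and it passed when replicate 1 of 410 min was left out (0.53, adjusted p = 0.0432).

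At 410 min the hlh-2 libraries held 34.5, 91.6 and 80.7 CPM, below every library of the earlier stages. Relative to 330 min hlh-2 fell by 2.17 ± 0.274 on the log2 scale (adjusted p = 9.36e-08). At 500 min it stood at 36.5, 73.5 and 44.04 CPM, overlapping the 410 min libraries, with no further change passing the test (log2 −0.30 ± 0.325, adjusted p = 0.591). Its stage mean at 500 min was 13.9% of the highest one.

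The achaete-scute family was represented by hlh-3 and hlh-14, both on chromosome II. The gene hlh-3, which acts in the differentiation of the HSN motor neuron, lies at 9086608 to 9087908 on the plus strand. Its level was 99.5, 150.4 and 115 CPM at 60 min and 82.1, 96.0 and 106 CPM at 120 min. At 180 min it was 12.6, 19.6 and 44.6 CPM, and no library reached those of the first 2 stages. The fall from 120 to 180 min was −1.98 ± 0.351 on the log2 scale (adjusted p = 5.82e-05).

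hlh-3 then came back. Its 3 libraries held 27.98, 34.4 and 38.2 CPM at 225 min. By 270 min they held 65.0, 90.1 and 68.5 CPM, and at 330 min 79.0, 113 and 86.2 CPM. The rise from 225 to 270 min was 1.12 ± 0.334 (log2; adjusted p = 0.0207), and all 3 later libraries were above all 3 earlier ones. That call rested on single libraries, since it was lost without replicate 1 of 225 min (1.03, adjusted p = 0.0716), replicate 2 of 225 min (1.14, adjusted p = 0.0617) or replicate 2 of 270 min (0.99, adjusted p = 0.0866). The second high phase reached 76.3% of the first. A second fall of −1.49 ± 0.356 followed between 330 and 410 min (adjusted p = 0.00128), to 31.4, 28.9 and 40.3 CPM. At 500 min the libraries held 0, 15.3 and 18.5 CPM. The change over that last step did not pass the test (log2 −1.18 ± 0.478, adjusted p = 0.0749). It passed without replicate 3 of 180 min (−1.22, adjusted p = 0.0423) and with library size alone (−1.33, adjusted p = 0.0413).

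The second achaete-scute member, hlh-14, is needed for the asymmetric divisions that give rise to the PVQ, HSN and PHB neurons, and lies at 5737785 to 5738895 on the minus strand. It was nearly absent at 60 min, with 0, 5 and 4 counts in the 3 libraries. At 120 min it held 193.5, 299 and 289.8 CPM and at 180 min 293, 359.9 and 405 CPM. The rise from 60 to 120 min was 5.41 ± 0.417 on the log2 scale (adjusted p = 3.77e-12). From its summed counts the 120 min level was 46.1 times that at 60 min, with a 95% exact counting interval of 23.98 to 102.

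The called falls of hlh-14 came after 330 min. Before then hlh-14 passed through 273, 250.3 and 273 CPM at 225 min and 106, 167 and 213 CPM at 270 min. At 330 min it stood at 201, 207 and 267 CPM, so its dip under 50% at 270 min (46.04%) was followed by a stage at 63.8%. No step between 120 and 330 min passed the test. With the replicate number fitted as a block, the fall from 225 to 270 min did pass (log2 −0.69, adjusted p = 0.0258). hlh-14 then fell by 1.71 ± 0.303 from 330 to 410 min (log2; adjusted p = 3.34e-05) and by 2.01 ± 0.430 to 500 min (adjusted p = 0.000436). Levels were 103.5, 60.3 and 34.6 CPM at 410 min and 6.08, 24.5 and 11.6 CPM at 500 min, with no overlap between the stages.

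**Figure D2:**
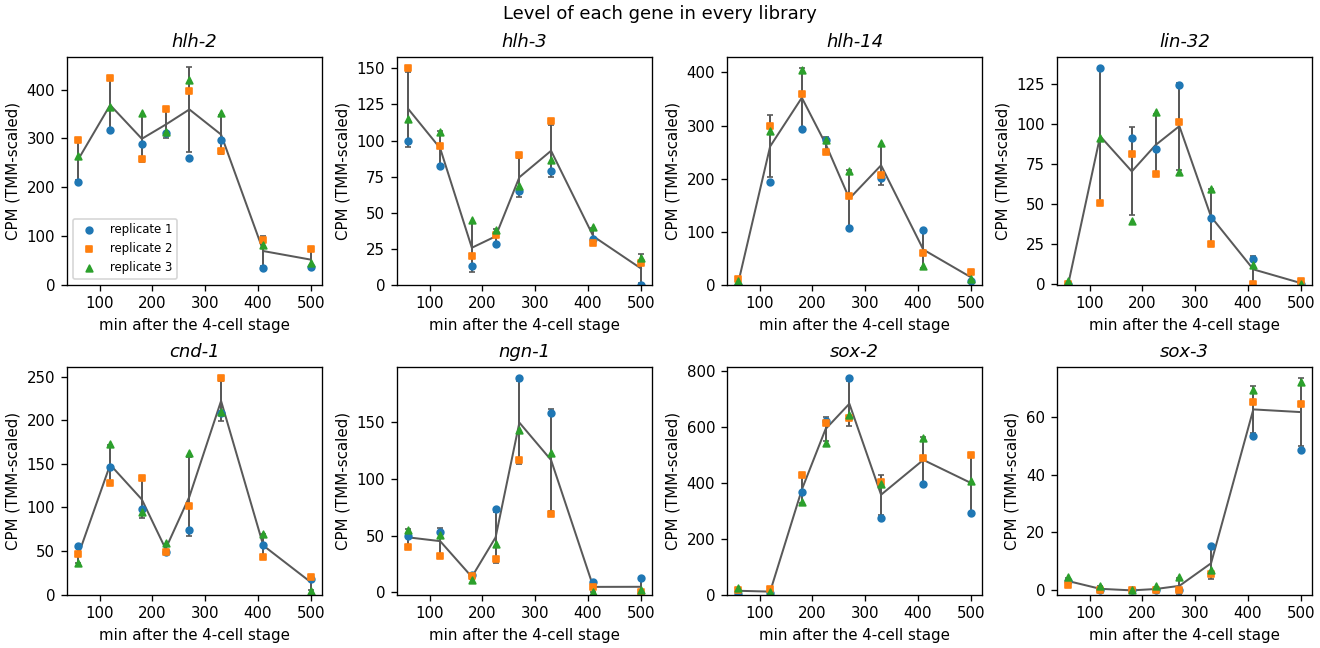
Level of each gene in TMM-scaled CPM (vertical axis, a separate scale for each gene) in every library by min after the 4-cell stage, with points coloured by replicate, lines joining stage means and bars of 1 SD (n = 3). hlh-3 shows a low stage at 180 min between 2 high phases, and every bHLH gene is lower at 410 min than at 330 min.

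The atonal-family gene lin-32, known for its role in touch receptor neurons and in the sensory rays of the male tail, lies on the X chromosome at 2229055 to 2230122 on the minus strand. It had 1 count in all 3 libraries of 60 min together. At 120 min it held 135, 50.7 and 91.2 CPM, which from summed counts was 126 times the 60 min level, with a 95% exact counting interval of 22.1 to 5021. The edgeR test gave an adjusted p of 1.60e-08 for that rise. The 3 libraries of 120 min spread widely, and their range covered all 3 libraries of 225 min and of 270 min.

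From 120 to 270 min lin-32 stayed on a plateau, with stage means of 92.2, 70.2, 86.7 and 98.5 CPM and no step that passed the test. At 330 min it was 41.2, 24.9 and 59.6 CPM, below all libraries of 270 min (124, 101 and 70.1 CPM). The change was −1.10 ± 0.362 on the log2 scale and missed the threshold (adjusted p = 0.0554). It passed when any 1 of 7 single libraries was left out, with log2 changes between −1.10 and −1.54 and adjusted p from 0.0231 to 0.0494. Those libraries were replicate 2 of 120 min, replicates 1 and 3 of 180 min, replicate 3 of 270 min, replicate 3 of 330 min and replicates 1 and 2 of 410 min. From 330 to 410 min lin-32 fell by 2.47 ± 0.606 (log2; adjusted p = 0.00174), to 5, 0 and 2 counts. At 500 min a single count was left in the 3 libraries, as at 60 min, and the 270 min level was 116 times as high, with a counting interval of 20.6 to 4629.

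The NeuroD-family gene cnd-1, which specifies early motor neurons of the ventral cord, lies on chromosome III at 5240591 to 5244639 on the minus strand. It was present from the start, at 56.0, 46.1 and 35.9 CPM at 60 min, and reached 147, 128 and 173 CPM at 120 min. That first rise was 1.75 ± 0.295 on the log2 scale (adjusted p = 8.69e-06). It passed through 98.4, 134 and 94.9 CPM at 180 min and dropped to 49.0, 49.1 and 59.4 CPM at 225 min. The 2 stages did not overlap, and the fall was −1.05 ± 0.289 (adjusted p = 0.021). The call was lost without replicate 2 of 180 min (−0.81, adjusted p = 0.211) and without any 1 of the 225 min libraries (−1.01, −0.97 and −1.16, with adjusted p from 0.0719 to 0.1002).

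cnd-1 rose a second time, reaching 73.9, 101 and 162 CPM at 270 min, then 208, 249 and 209.8 CPM at 330 min, its highest stage. The step from 225 to 270 min was 1.11 ± 0.287 (log2; adjusted p = 0.00683) and that from 270 to 330 min 0.93 ± 0.248 (adjusted p = 0.0135). The first of these was lost without replicate 3 of 270 min (0.75, adjusted p = 0.168). The second was lost without replicate 1 of 270 min (0.73, adjusted p = 0.124), replicate 2 of 270 min (0.79, adjusted p = 0.139) or replicate 2 of 330 min (0.85, adjusted p = 0.0679). All 3 libraries of 330 min were nevertheless above all libraries of every other stage. cnd-1 then fell by 2.03 ± 0.295 to 410 min (adjusted p = 1.24e-06) and by 1.90 ± 0.427 to 500 min (adjusted p = 0.000761), ending at 18.2, 19.9 and 4.64 CPM.

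The neurogenin gene ngn-1, which with hlh-2 sets the identity of the pharyngeal neuron MI, lies on chromosome IV at 2626062 to 2628271 on the minus strand. It held 49.8, 40.1 and 55.3 CPM at 60 min, 52.8, 32.01 and 50.5 CPM at 120 min and 15.1, 14.3 and 11.2 CPM at 180 min. All 3 libraries of 180 min were below the earlier ones. The fall was −1.68 ± 0.466 on the log2 scale (adjusted p = 0.00915), and it was lost without replicate 3 of 120 min (−1.49, adjusted p = 0.0946).

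ngn-1 rose again over 2 steps, with 73.5, 29.4 and 42.4 CPM at 225 min, then 189, 116 and 143 CPM at 270 min. The first step was 1.73 ± 0.453 (log2; adjusted p = 0.0141) and the second 1.67 ± 0.342 (adjusted p = 0.00059). The first was lost without replicate 2 of 180 min (1.83, adjusted p = 0.0634), replicate 3 of 180 min (1.66, adjusted p = 0.0588) or replicate 1 of 225 min (1.41, adjusted p = 0.103). The second was lost without the third replicates (1.58, adjusted p = 0.0900). Replicate 1 held more ngn-1 than the mean of the other libraries in 8 of 8 stages, by a median of 0.61 on the log2 scale. hlh-2 and hlh-3 were lower in replicate 1 in 8 of 8 stages, by medians of −0.36 and −0.32. What sets replicate 1 apart for these genes was not tested.

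The fitted fall of ngn-1 between 330 and 410 min was the largest of the 6 bHLH genes, though no test compared the falls with each other. It went from 158, 69.1 and 123 CPM to 9.41, 4.82 and 0 CPM, which is 3, 2 and 0 counts. edgeR gave a fall of 4.38 ± 0.535 on the log2 scale (adjusted p = 4.73e-08). From summed counts the 270 min level was 26.1 times that at 410 min (counting interval 11.03 to 81.3) and 60.0 times that at 500 min (20.3 to 293). At 500 min 2, 0 and 1 counts remained.

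The SoxB gene sox-2, which is expressed in neural precursors and in some neurons of the worm, lies on the X chromosome at 7458280 to 7463736 on the minus strand. Its span holds 5 annotated non-coding RNA genes that have no row in the table. It was low in all 6 libraries of the first 2 stages, with 3.11, 16.04 and 22.4 CPM at 60 min and 5.86, 18.7 and 8.14 CPM at 120 min. At 180 min it held 366, 428 and 332 CPM. The rise was 5.03 ± 0.356 on the log2 scale (adjusted p = 6.67e-13), and from summed counts 34.7-fold with a counting interval of 20.1 to 65.6. No other member had a called rise at that step.

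sox-2 reached 619, 613 and 542 CPM at 225 min and 774, 630.5 and 640.1 CPM at 270 min. The step from 180 to 225 min was 0.65 ± 0.223 (log2; adjusted p = 0.0900), and it passed when replicate 1 of 60 min was left out (0.67, adjusted p = 0.0477). It fell by 0.93 ± 0.222 to 330 min (adjusted p = 0.00568), where the libraries held 275, 401 and 395 CPM, all below those of 270 min. That call was lost without the first replicates (−0.68, adjusted p = 0.0691) or the second ones (−1.10, adjusted p = 0.1055). In the last 2 stages it stayed on, with 395, 489 and 559 CPM at 410 min and 292, 499 and 406 CPM at 500 min. Those stages overlapped the 330 min libraries, and neither step passed the test. Against 60 min, sox-2 was 4.68 ± 0.318 higher on the log2 scale at 500 min (adjusted p = 3.06e-15).

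The second SoxB gene, sox-3, lies on the X chromosome at 14690816 to 14693005 on the minus strand. It was the last member to appear. The first 5 stages held 5, 1, 0, 1 and 3 counts summed over their 3 libraries, so no level between 60 and 270 min was distinguishable from a few reads. At 330 min the libraries held 15.5, 5.53 and 7.11 CPM, all above those of 270 min (0, 0 and 4.67 CPM). That step missed the threshold (log2 2.12 ± 0.760, adjusted p = 0.0866) and passed without replicate 3 of 270 min (5.17, adjusted p = 0.0148), which held all 3 counts of that stage.

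At 410 min sox-3 was at 53.3, 65.1 and 69.1 CPM and at 500 min at 48.6, 64.3 and 71.9 CPM. The rise from 330 to 410 min was 2.70 ± 0.458 (log2; adjusted p = 1.96e-05). From summed counts it was 6.72-fold, with a counting interval of 3.93 to 11.98. Against the 0 counts of 180 min the 410 min level was at least 31.3-fold higher, taking a floor of 3 counts over the stage. The last 2 stages overlapped, and the change between them was 0.03 ± 0.384 (log2; adjusted p = 0.984).

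**Figure D3:**
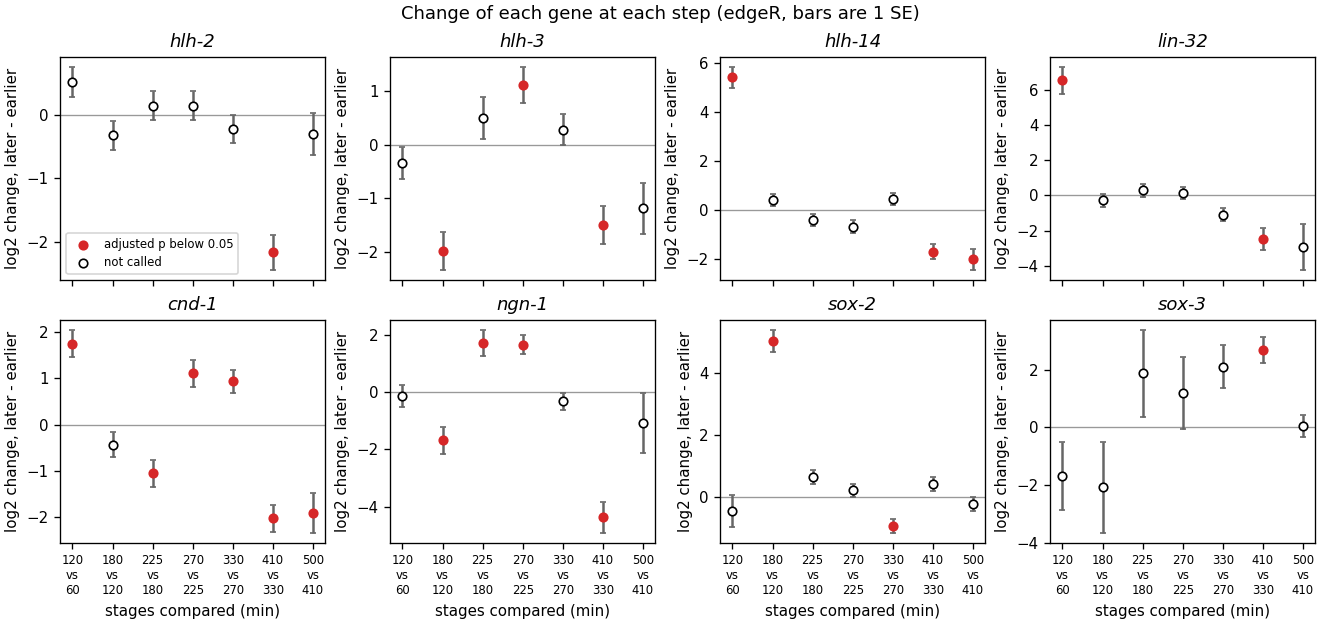
Log2 change of each gene between each pair of adjacent stages (vertical axis, later minus earlier, a separate scale for each gene), from edgeR with bars of 1 SE, with filled points for an adjusted p under 0.05. All 6 bHLH genes have a filled point below 0 at 410 against 330 min, where sox-3 has one above 0 and sox-2 an open one.

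Between adjacent stages there were 10 called rises and 12 called falls of members, and 6 of the falls came at a single step, from 330 to 410 min. All 8 members changed over the time course, as did 91.6% of all tested genes. From 60 to 120 min 3 members rose (lin-32, hlh-14 and cnd-1) beside 23.6% of tested genes, and 0 fell beside 20.1%. From 120 to 180 min sox-2 alone rose beside 8.17% of tested genes, while ngn-1 and hlh-3 fell beside 9.22%. From 180 to 225 min ngn-1 rose (3.07% of tested genes) and cnd-1 fell (2.57%). From 225 to 270 min 3 members rose, namely ngn-1, hlh-3 and cnd-1, beside 8.2% of tested genes, and 0 fell beside 4.11%. From 270 to 330 min cnd-1 rose (6.17%) and sox-2 fell (1.49%).

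At the step from 330 to 410 min 7 of 8 members changed. 6 fell, all the bHLH genes, where 11.2% of tested genes fell, and sox-3 rose, where 18.8% rose. The median log2 change was −1.87 over the 8 members and −0.02 over all tested genes. The falls of hlh-2, hlh-14, cnd-1 and ngn-1 were called under all 36 alternative analyses. That of lin-32 was lost without the third replicates (−2.22, adjusted p = 0.0514) and that of hlh-3 without the second ones (−1.27, adjusted p = 0.0637). Over the same step the summed level of 6 body wall muscle markers went from 1615 to 2520 CPM at 330 min to 4423 to 5110 CPM at 410 min. 5 intestinal markers went from 588 to 761 CPM to 1589 to 1803 CPM, and 5 epidermal ones from 1503 to 2301 CPM to 2488 to 2938 CPM. The 4 pharyngeal markers went from 715 to 1153 CPM to 622 to 897 CPM. Among the muscle markers 4 rose and hlh-1 fell (log2 −1.305, adjusted p = 0.00816). Among the intestinal ones 2 rose and elt-7 fell (log2 −1.27, adjusted p = 0.0481). None of these markers was at 0 in all libraries of either stage. The part of the growing muscle, intestinal and epidermal sums in the fall of the bHLH genes was not tested. From 410 to 500 min hlh-14 and cnd-1 fell beside 7.38% of tested genes, and 0 members rose beside 14.5%. Scaling by the ERCC spike-ins, which widened the spread between replicates, left 9 of the 22 calls between adjacent stages. These were the rises of lin-32 and hlh-14 to 120 min and of sox-2 to 180 min, and the 6 bHLH falls to 410 min. This scaling also moved the median log2 change of all tested genes from 330 to 410 min to −0.96, in the direction of the falls. The sox-3 rise to 410 min was then 1.77 (log2; adjusted p = 0.082).

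The comparisons against 60 min share the 60 min libraries. At 180 min 4 members were higher (lin-32, hlh-14, cnd-1 and sox-2) beside 28% of tested genes, and ngn-1, hlh-3 and sox-3 were lower beside 24.6%. The sox-3 call compared 0 counts with 5 and was lost without replicate 3 of 60 min (adjusted p = 0.0911) or replicate 2 of 180 min (adjusted p = 0.0922). At 225 min lin-32, hlh-14 and sox-2 were higher (29.5%) and hlh-3 was lower (26.6%).

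At 270 min 5 members were higher, beside 34.9% of tested genes, and hlh-3 was lower, beside 28.5%. That hlh-3 call (log2 −0.71 ± 0.289, adjusted p = 0.0319) was lost without replicate 2 or 3 of 60 min or replicate 1 or 3 of 270 min, with log2 changes between −0.52 and −0.74 and adjusted p from 0.0535 to 0.175. hlh-2 missed the threshold at 270 min (0.48 ± 0.227, adjusted p = 0.0623) and passed it when any 1 of 6 libraries was left out, with values of 0.50 to 0.68 and adjusted p from 0.0144 to 0.0482. These were replicate 2 of 60 min, replicate 3 of 180 min, replicate 1 of 270 min, replicates 1 and 2 of 410 min and replicate 2 of 500 min. At 330 min 5 members were higher, ngn-1, lin-32, hlh-14, cnd-1 and sox-2, beside 39.1% of tested genes, and 0 were lower beside 30.3%.

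At 410 min lin-32, hlh-14, sox-2 and sox-3 were higher (42.1%) and ngn-1, hlh-3 and hlh-2 were lower (33%). The lin-32 call (log2 3.12 ± 1.27, adjusted p = 0.0263) rested on 7 counts against 1, in libraries that overlapped. It was lost without replicate 1 of 410 min (2.01, adjusted p = 0.276), replicate 3 of 410 min (2.92, adjusted p = 0.0621), replicate 1 of 60 min (2.80, adjusted p = 0.0598) or replicate 2 of 60 min (2.62, adjusted p = 0.0829). Without replicate 3 of 60 min it was 4.89 (adjusted p = 0.0281).

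At 500 min the 2 SoxB genes and hlh-14 were higher than at 60 min, beside 46.1% of tested genes. ngn-1, hlh-3, cnd-1 and hlh-2 were lower, with log2 changes of −4.16, −3.10, −1.63 and −2.21, beside 33.2% of tested genes. The hlh-14 call (1.47 ± 0.616, adjusted p = 0.0294) was lost without replicate 2 of 500 min (0.67, adjusted p = 0.463), replicate 1 of 60 min (1.01, adjusted p = 0.1301) or replicate 3 of 60 min (1.39, adjusted p = 0.0921). At both ends hlh-14 was low, with 9 counts at 60 min and 22 at 500 min, and the libraries of these stages overlapped. lin-32 had 1 count at each end. The median log2 change from 60 to 500 min was −0.72 over the members and 0.47 over all tested genes.

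At 60 min, when hlh-2, hlh-3, cnd-1 and ngn-1 were already counted, 4 germ line markers (pgl-1, glh-1, nos-2 and mex-1) summed to between 905 and 1164 CPM, against 199 to 365 CPM at 120 min. None of them was at 0 in all libraries of either stage. RNA loaded by the mother and RNA made by the embryo cannot be told apart in these libraries. 5 pan-neuronal marker genes summed to between 114 and 138 CPM at 60 min, and between 620 and 857 CPM at 500 min. unc-119 alone gave 121.8 CPM of the 60 min mean and 129 CPM of that at 500 min, and snt-1 was at 0 at 60 min.

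Related members were also compared within each library, as the log2 ratio of CPM plus 5, which does not depend on the scaling of the library beyond that added value. Averaged over 9 early libraries (60, 120 and 180 min) and 9 late ones (330, 410 and 500 min), none of the 4 ratios passed the test. Late minus early, sox-2 over sox-3 changed by 0.46 (two-sided exact permutation p = 0.623), hlh-3 over hlh-14 by −0.36 (exact p = 0.759), ngn-1 over cnd-1 by −0.20 (exact p = 0.724) and ngn-1 over lin-32 by 0.38 (exact p = 0.669). All 4 had a Benjamini-Hochberg value of 0.759. The early and late sets each joined unlike stages, and the ratios moved inside them. Between 60 and 120 min and 410 and 500 min alone, sox-2 over sox-3 changed by 1.47 (exact p = 0.00217). At 60 and 120 min sox-2 held 24 and 13 counts summed over the stage, and sox-3 held 5 and 1. That change therefore depends on the added 5 CPM, and its test again joined libraries of unlike stages. Over the full sets the sign of the sox-2 to sox-3 change turned with 1 CPM added in place of 5 (−0.75, exact p = 0.539) and with at least 5 counts required (−0.21, exact p = 0.822).

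The ratio of hlh-3 to hlh-14 was 3.74 ± 0.564 at 60 min (log2, SD, n = 3), −1.40 ± 0.2002 at 120 min and −3.67 ± 0.551 at 180 min. The libraries of the 3 stages did not overlap. The ratio then climbed to −1.03 ± 0.475 at 270 min. It was −1.24 ± 0.369 at 330 min and −0.39 ± 0.836 at 500 min, where the libraries overlapped those of 270 min. ngn-1 over cnd-1 went from 0.08 ± 0.421 at 60 min to −2.61 ± 0.244 at 180 min, back to 0.44 ± 0.766 at 270 min and to −2.76 ± 0.983 at 410 min. ngn-1 over lin-32 turned from 3.28 ± 0.151 at 60 min to −1.95 ± 0.438 at 180 min and 1.37 ± 0.421 at 330 min. sox-2 over sox-3 was 1.45 ± 0.690 at 120 min and 6.24 ± 0.182 at 180 min. It was still 6.78 ± 0.639 at 270 min, and 2.58 ± 0.244 by 500 min. Through 270 min sox-3 held 0 to 5 counts per stage, so those values are set by the added 5 CPM and follow sox-2 alone. The added 5 CPM also limits the ratios to hlh-14 and to lin-32 at 60 min, where these genes held 9 counts and 1 count. It limits ngn-1 over cnd-1 at 410 min as well, where ngn-1 held 5 counts. The same holds for hlh-3 over hlh-14 at 500 min, where these genes held 18 and 22 counts. These stage values are descriptions. A test of 3 libraries against 3 cannot go below an exact p of 0.10.

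**Figure D4:**
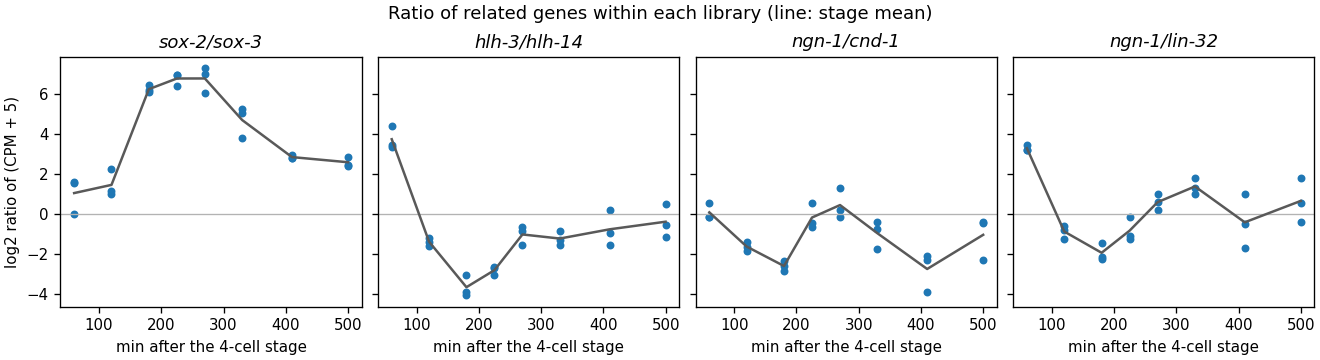
Log2 ratio of CPM plus 5 for 4 pairs of related members (vertical axis) in every library by min after the 4-cell stage, with lines joining stage means. The hlh-3 to hlh-14 ratio drops from 3.74 at 60 min to −3.67 at 180 min. Its 60 min value rests on 9 counts of hlh-14 and is limited by the added 5 CPM. The sox-2 to sox-3 ratio is highest between 180 and 270 min, where sox-3 held 0 to 3 counts per stage.

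Among the 28 pairs of members, lin-32 and hlh-14 had the most alike courses over the 24 libraries (Pearson r = 0.88 of log2 CPM) and hlh-2 and sox-3 the least alike (r = −0.89). For each member, the 2 most alike of the other tested genes with a highest stage mean of at least 20 CPM were read in the same way. For hlh-2 they were fubl-3 and T05H10.4 (both r = 0.96), and for hlh-14 lipl-7 (r = 0.96) and sup-26, an RNA-binding protein (r = 0.95). For lin-32 they were C08F1.10 and the zinc finger gene ztf-13 (both r = 0.94). For hlh-3 they were B0495.7 (r = 0.92), whose exons overlap cdk-11.1 on the opposite strand, and the Wnt ligand gene mom-2 (r = 0.82). For cnd-1 they were C14C11.7 (r = 0.83), which overlaps C14C11.1, and ZK930.6 (r = 0.82).

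For ngn-1 the closest were the Wnt secretion gene mig-14 (r = 0.83) and DC2.5 (r = 0.78). For sox-2 they were cki-1, an inhibitor of cyclin-dependent kinases (r = 0.97), and let-4, an extracellular leucine-rich repeat protein (r = 0.96). For sox-3 they were F40A3.2 and mks-3, a protein of the ciliary transition zone that overlaps F35D2.6 (both r = 0.98). The 24 libraries share stages and depth, so these values describe likeness of time course and carry no p.

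Other bHLH and Sox families and lists of neuronal genes were read beside the members. The REF-1 and HES family, bHLH repressors that in the worm include targets of Notch signalling, had 3 tested genes of 7 listed. All 3 were highest at 60 min, as were 1938 of 8279 tested genes. All 3 were lower than at 60 min both at 120 and at 500 min, beside 20.1% and 33.2% of tested genes, with 0 higher. hlh-25 and hlh-27 passed the filter on low counts only through their 60 min libraries. For them a highest stage at 60 min and a lower level later were fixed by the filter. The counts and the median of this family are therefore descriptions. ref-1 held 187 ± 28.3 CPM (SD, n = 3) at 60 min and 62.6 ± 11.1 CPM at 120 min. hlh-27, at 298 ± 35.9 CPM at 60 min, was at 1.63 ± 2.82 CPM at 120 min. hlh-25 went from 55.6 ± 13.3 CPM to 0 counts. hlh-25 and hlh-27 lie beside similar copies, and hlh-27 overlaps C17C3.11, so their split of reads is uncertain. The family's median log2 change from 60 to 500 min was −7.73, or −5.48 with genes at 0 taken at their bound, against 0.47 over all tested genes.

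Of 28 other bHLH genes, 17 were tested. At 500 min 12 were higher and 3 lower than at 60 min, beside 46.1% and 33.2% of all tested genes. Their median log2 change was 2.61, or 1.96 with genes at 0 taken at their bound. hnd-1, a mesodermal bHLH gene, was highest at 120 min like hlh-2 (276 CPM) and was lower at 500 min (log2 −4.68, adjusted p = 3.43e-06). hlh-16 was highest at 270 min (43.8 CPM), the stage of ngn-1, lin-32 and sox-2, and fell by 2.63 on the log2 scale from 330 to 410 min (adjusted p = 0.0292). hlh-4, a relative of achaete-scute, stayed on, at 34.2 CPM at 270 min and 36.8 CPM at 500 min. hlh-6, the achaete-scute relative of the pharyngeal glands, was highest at 330 min (41.2 CPM) and hlh-13 at 500 min (51.5 CPM). hlh-32 was not above 1 CPM before 410 min and reached 91.8 CPM at 500 min. At the step from 330 to 410 min, where the 6 bHLH members fell, 3 of these 17 genes fell and 3 rose, beside 11.2% and 18.8% of all tested genes.

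Of 3 other Sox genes, sox-4 and egl-13 were tested, and both rose from 330 to 410 min, as 18.8% of tested genes did. The level of sox-4 was 0.593 CPM at 330 min and 19.8 CPM at 410 min (log2 change 4.11, adjusted p = 0.000149). The SoxD gene egl-13 was already called higher than at 60 min from 180 min on (28.4 CPM at 180 min). It went from 112 to 427 CPM over the same step (log2 1.96, adjusted p = 3.34e-05).

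Of 31 regulators of neuron fate, 18 were tested. At 500 min 13 were higher and 2 lower than at 60 min, beside 46.1% and 33.2% of all tested genes. Their median log2 change was 5.00, or 4.82 with genes at 0 taken at their bound. The homeobox gene unc-42 was at least 103-fold higher at 500 than at 60 min, the ETS gene ast-1 at least 56.0-fold and the homeobox gene unc-4 at least 34.6-fold. unc-4 passed the filter only through its 500 min libraries, so its rise to that stage was fixed by the filter. ast-1 overlaps rhgf-2 on the opposite strand, so its counts are uncertain. The largest fall was that of pig-1, a kinase of asymmetric neuroblast divisions, which held 182 CPM at 60 min, 248 CPM at 180 min and 7.14 CPM at 500 min (log2 change −4.49 ± 0.352, adjusted p = 1.10e-13). From 330 to 410 min 5 of the 18 fell and 2 rose, beside 11.2% and 18.8% of tested genes.

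Of 26 pan-neuronal genes, which serve the synapse and axon of most neurons, 21 were tested. 18 were higher at 500 than at 60 min and 0 were lower (median log2 3.35), beside 46.1% and 33.2% of tested genes. 9 rose and 0 fell from 330 to 410 min, the step at which the bHLH members fell, beside 18.8% and 11.2% of tested genes. From 410 to 500 min 9 again rose and 0 fell, beside 14.5% and 7.38%. ida-1, a dense-core vesicle protein, was at least 90.2-fold higher at 500 than at 60 min, and the synaptotagmin gene snt-1 at least 41.7-fold. snt-1 passed the filter only through its 500 min libraries, so its rise to that stage was fixed by the filter. rab-3, a synaptic vesicle GTPase gene that overlaps damt-1 on the opposite strand, was 8.13 ± 0.581 higher on the log2 scale (adjusted p = 1.14e-14). 17 of the 21 had their highest stage mean at 500 min, as did 2477 of all 8279 tested genes. No member did, though sox-3 stood at 98.5% of its highest stage mean there.

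**Figure D5:**
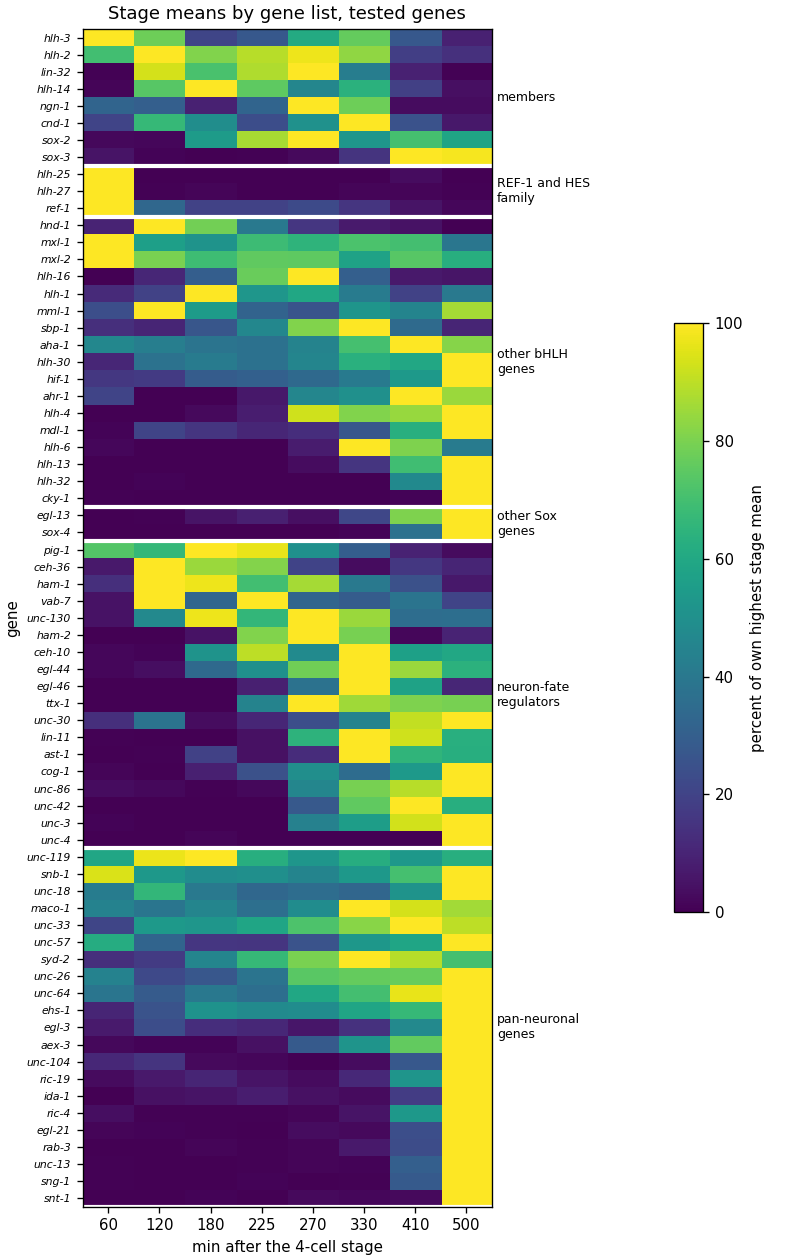
Stage mean of each tested gene as a percent of its own highest stage mean (colour), by min after the 4-cell stage, for the members and 5 other gene lists, with genes in rows. The REF-1 and HES rows are brightest at 60 min, where 1938 of all 8279 tested genes were highest. For hlh-25 and hlh-27 this was fixed by the filter on low counts. Each bHLH member row is brightest at a stage between 60 and 330 min. Of 21 pan-neuronal rows 17 are brightest at 500 min, where 2477 of all tested genes were highest.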

How the data were processed

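The authors deposited raw, unnormalized counts for each gene. HTSeq was the counting tool, per the submitters' processing notes. Not given in the sources used here are the aligner, the build, the annotation and whether counting used strand. Of 20779 entries, 92 were ERCC spike-ins, and 0 columns were left unused. Counts stopped just under 1024, the number of forms of a 5-base identifier, and an alternative corrects for collisions on that assumption. Names and coordinates came from WBcel235, where 20083 genes matched.

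edgeR 4.0.16 (R 4.3.3; filterByExpr with a minimum count of 10, TMM, robust quasi-likelihood fit, stage as factor) was run over 24 libraries and 8279 genes, which held 98.21% of the counts. Adjusted p-values are Benjamini-Hochberg within a contrast. The script was tested on simulated data. CPM were computed here from the deposited counts. Ratios were tested by exact permutation over 48620 splits (scipy 1.17.1). Alternatives covered scaling, filters, DESeq2 1.42.0, a replicate block and libraries left out. Alike genes and examples of the lists were named by a rule of correlation or size of change. The members and lists were chosen with earlier results of these data known. Sequences were not used here.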

Additional observations from a re-analysis of the deposited data

How the results depend on the processing

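Of 112 member tests (the time course and 13 contrasts for each of 8 genes), 66 were called, and 44 of these were called under each of the 36 alternative fits. 22 were lost under at least 1 alternative, 9 further ones were gained under at least 1, and 0 changed direction while called. Scaling by ERCC spike-ins left 9 calls between adjacent stages (3 rises and 6 falls) against 22 (10 rises and 12 falls), with a biological coefficient of variation of 0.491 against 0.192. Under it the median of all genes moved by −0.96 from 330 to 410 min on the log2 scale, against −0.02, and by −0.32 with library size alone.

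With the replicate number as a block (replicate block), 27 calls were made between adjacent stages (12 rises and 15 falls) and 41 against 60 min (39 without it). The calls it added were hlh-2 from 60 to 120 min (log2 0.51, adjusted p = 0.0221), sox-2 from 180 to 225 min (0.65, adjusted p = 0.0247), hlh-14 from 225 to 270 min (−0.69, adjusted p = 0.0258), lin-32 from 270 to 330 min (−1.11, adjusted p = 0.0197), hlh-3 from 410 to 500 min (−1.25, adjusted p = 0.0356) and hlh-2 at 270 against 60 min (0.48, adjusted p = 0.0196). The numbers are not known to pair the samples. 48 of 84 same-number pairs of libraries correlated over 0.1 in their deviations (range −0.196 to 0.434), and 17 of 24 libraries correlated best with their own number.

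The sox-2 to sox-3 ratio, compared between 60 and 120 min and 410 and 500 min, changed by 1.47 (exact permutation p = 0.00217). That value depends on the added 5 CPM, since sox-3 held 5 counts at 60 min and 1 at 120 min. At 25% of the highest stage mean the onset of ngn-1 moved to 60 min, and at 10% those of ngn-1 and cnd-1 moved to 60 min and that of sox-3 to 330 min. Losses moved later: at 25% those of lin-32 and hlh-14 to 410 min and of cnd-1 to 500 min, and at 10% lin-32 to 410 min, those of hlh-14, hlh-3 and cnd-1 to 500 min, with none for hlh-2. Without the second or the third replicates, sox-2 was under 50% at 330 min, and without the second ones its onset moved to 225 min. With spike-in scaling the onset of cnd-1 moved to 330 min and the losses of hlh-3, hlh-14, lin-32 and sox-2 to 410 min. With library size alone sox-2 was lost at 500 min.

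Depth limits lin-32, ngn-1 and sox-3 where stages held 0 to 7 counts. Whole embryos give no cell-level measure.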
